A study of Mus musculus with 6 samples.

Results

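Peptide and amino acid uptake by the intestinal epithelium was followed through 10 transporter genes of the 21397 genes listed, namely Slc15a1, Slc6a19, Slc6a20a, Slc7a9, Slc3a1, Slc1a1, Slc7a7, Slc7a8, Slc3a2 and Slc7a5. They were chosen by name as the main intestinal carriers of di- and tripeptides and amino acids, together with the heavy chains of the heteromeric carriers. Slc15a1 was included because its fall in the comparison described here was among the largest, so its values are given without a test. The libraries came from small intestinal organoids, which are epithelial cultures grown from crypts of Fpr2f/f mice. Their Fpr2 alleles are floxed, on a C57BL/6J background, and this genotype is shared by both groups. The MMK-1 group was treated for 5 days with MMK-1, a peptide agonist of the receptor FPR2, and the Control group received the vehicle, 0.1% DMSO. Each group had 3 libraries and, per the study's text, every sample held organoids of 3 mice, so p-values measure the spread between these pooled samples. The protocol gives the dose as 1 μmol/L, whereas the treatment label gives 1 mM, and the protocol's dose was taken as the dose used. Per the methods, the mice of the study were young adults matched for sex and age. Because these are bulk samples, fewer cells of a type and less RNA per cell cannot be told apart in any value below.

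Dietary protein is taken up across the brush border of enterocytes as free amino acids and as small peptides, and leaves the cell across the basolateral membrane. Several of the carriers involved are heteromers, in which a glycosylated heavy chain (Slc3a1 at the apical side, Slc3a2 at the basolateral side) brings a light chain of the Slc7 family to the membrane. Expression of most of these carriers is known to be highest in differentiated villus enterocytes, whereas Slc7a5 is typical of growing cells.

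Control and MMK-1 libraries held 35512739 to 37537463 fragments. Levels are given in FPKM, the fragments of a gene after scaling for gene length and library depth. Fold changes and tests refer to log2(FPKM + 1) in limma, run on the 10551 genes whose mean FPKM was 1 or more, with Benjamini-Hochberg adjustment over all of them. MMK-1 replicate 3 stood apart from the other two MMK-1 libraries, with a chi-square per degree of freedom of 38.6 to 45.1 against them, compared with 3.84 between MMK-1 replicates 1 and 2 and 2.90 to 5.58 between control libraries. It was the highest MMK-1 library in 60.7% of all genes tested. All 5 epithelial markers were expressed. Epcam was at 392 ± 1.79 FPKM in the control and 391 ± 20.9 FPKM in the MMK-1 group (SD, n = 3 each), and after upper-quartile scaling its difference of -0.12 on the log2 scale passed the test (adjusted p = 0.012 in limma). Of the others, Krt18 (log2 fold change 0.44) and Cdh1 (0.17, and 0.05 without a call after upper-quartile scaling) rose and Krt8 (-0.30) and Vil1 (-1.21) fell. Markers of immune cells summed to 0.579 to 0.932 FPKM in the control and 0.597 to 0.717 FPKM in the MMK-1 libraries, those of stromal cells to 0.0353 to 0.0742 and 0.0778 to 0.117 FPKM, and those of endothelial cells to 0.0642 to 0.184 and 0.0676 to 0.226 FPKM, with Kdr at 0 in all libraries. The labels give the small intestine and the study's text the ileum as the source. The ileal marker Fabp6 fell from 4.96 ± 0.188 to 0.915 ± 0.420 FPKM and Slc10a2 from 6.03 ± 0.448 to 4.54 ± 0.795 FPKM (adjusted p = 0.013 in limma, and 0.058 when every gene above 0 was tested). Of the proximal markers, Cybrd1 rose from 1.75 ± 0.189 to 27.1 ± 0.485 FPKM, Lct fell from 150.2 ± 0.195 to 28.3 ± 1.45 FPKM and Slc40a1 did not pass the filter. The part of these segment markers in the change of the transporters was not tested.

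All 10 transporter genes passed the filter on low values, with at least 402 fragments in every library. Slc15a1, Slc6a20a, Slc7a9, Slc7a8, Slc7a7, Slc1a1, Slc3a1, Slc3a2 and Slc6a19 were lower with MMK-1, and Slc7a5 was higher. In each of the 10 genes the groups were apart without overlap, as in 76.8% of all genes tested. Summed over the 10 genes, the level was 482 ± 5.72 FPKM in the control and 235 ± 7.88 FPKM in the MMK-1 libraries (SD, n = 3 each), so that the sum ranged from 478 to 489 FPKM in the former and from 230.3 to 244 FPKM in the latter. The median log2 fold change of the 10 genes was -0.75, beside 0.13 over all genes tested. By limma, with an adjusted p no higher than 0.05, 8 of the 9 genes other than Slc15a1 were lower and 1 was higher, where 24.7% of all genes tested were lower and 48.5% were higher. As the genes were chosen with this contrast known, nothing is read from these counts. Of the same 9 genes, Slc6a20a, Slc7a8 and Slc7a9 passed a fold change of 2, where 7.04% of all genes tested did, and Slc7a5 was added with a pseudocount of 0.1 (log2 fold change 1.02) or in the test on recovered fragments (1.03).

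**Figure D1:**
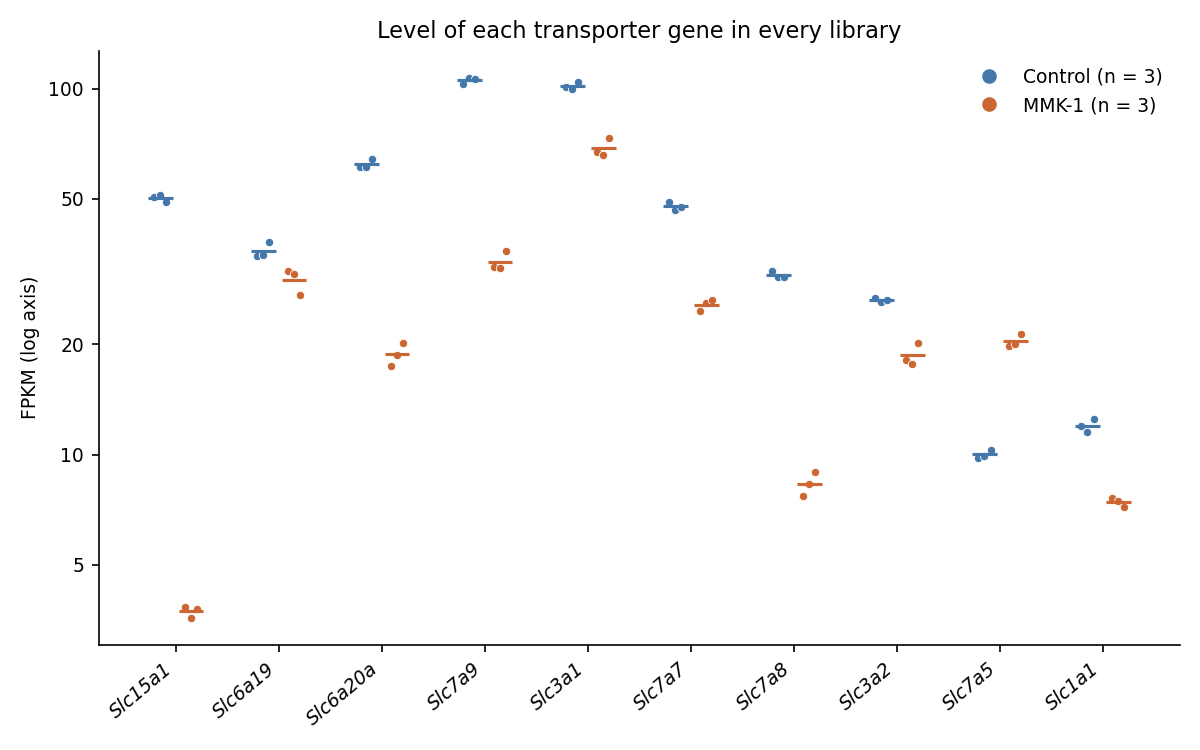
Level of the 10 transporter genes in each of the 6 libraries, in FPKM on a log axis. Each point is 1 library, blue for Control and orange for MMK-1 (n = 3 each), and bars mark group means; Slc15a1 drops from between 49.0 and 51.1 to between 3.58 and 3.82 FPKM, while Slc7a5 is the only gene whose MMK-1 points lie above its control points.

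Scaling each library by its upper quartile moved the median of all genes to 0.03 and each transporter's log2 fold change by -0.12 to -0.11, without changing a direction or a call, where 34.0% of all genes were then called lower and 38.3% higher. Over all genes, the calls were 66.3% higher and 33.7% lower with the deposited values, and 52.9% higher and 47.1% lower after this scaling. Fold changes below are those of the deposited values.

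Upstream sequence of 3 of these genes is shown as context for the gene with the largest change and for 2 of the genes in which short recognition sequences of factors active in the intestine were found. RefSeq windows of 250 bases before the start site (GRCm38.p6) were matched for 9 of the 10 genes by symbol. Only bases outside the annotated gene are printed, which leaves 190 bases for Slc7a8, and capitals mark the matches. The positions are chr14:121505255-121505504, minus strand, for Slc15a1, chr17:85028097-85028346, plus strand, for Slc3a1, and chr14:54781947-54782136, minus strand, for Slc7a8.
Slc15a1: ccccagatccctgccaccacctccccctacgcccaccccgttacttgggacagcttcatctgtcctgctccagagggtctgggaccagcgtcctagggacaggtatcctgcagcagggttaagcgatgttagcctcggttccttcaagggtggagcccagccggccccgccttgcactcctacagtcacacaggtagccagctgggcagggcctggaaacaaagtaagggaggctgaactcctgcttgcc
Slc3a1: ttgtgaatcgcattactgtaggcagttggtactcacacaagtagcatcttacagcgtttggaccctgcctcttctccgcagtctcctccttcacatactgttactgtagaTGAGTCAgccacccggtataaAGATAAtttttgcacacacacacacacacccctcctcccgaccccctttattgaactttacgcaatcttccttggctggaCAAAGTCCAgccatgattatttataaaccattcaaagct
Slc7a8: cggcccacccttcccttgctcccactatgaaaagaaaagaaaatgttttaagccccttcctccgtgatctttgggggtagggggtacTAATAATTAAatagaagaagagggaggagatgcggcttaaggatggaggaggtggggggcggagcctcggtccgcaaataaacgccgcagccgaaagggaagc
In the Slc3a1 window, an AP-1 sequence (TGANTCA) began 140 bases, a GATA sequence (AGATAA) 119 bases and an HNF4 sequence (CAAAGTCCA) 39 bases before the start site. The Slc7a8 window held the reverse complement of an HNF1 sequence 163 bases before the start, and Slc7a9 held a match to the HNF1 motif in the forward direction in its own windows. None of the searched letters occurred in the Slc15a1 window, whose GC content was 62.0%, compared with 45.6% for the Slc3a1 window and a median of 52.4% over all 32851 windows. On either strand, HNF4 letters were found in 0.384% of all windows, HNF1 letters in 0.387%, GATA letters in 9.99% and AP-1 letters in 6.75%. Of the 9 genes, Slc7a7 and Slc7a9 also held GATA letters, and HNF4 and AP-1 letters were found in Slc3a1 alone. The sequence TGATGNAA, bound by ATF4, was found in 3.45% of windows and, of the 9 genes, in Slc7a7, and the E-box CACGTG in 6.02% and in none of the 9. The motifs were chosen after the sequences had been seen, and a match is a description of letters only.

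At the apical membrane, Slc15a1 had the largest change. It encodes PEPT1, the proton-coupled carrier that takes up di- and tripeptides (NCBI gene 56643, GRCm38 chr14:121459621-121505252, minus strand). Its level was 50.5, 51.1 and 49.0 FPKM in the 3 control libraries and 3.82, 3.58 and 3.79 FPKM in the 3 MMK-1 libraries. The lowest control library was thus far above the highest MMK-1 library, and the libraries of each group lay close together. The group means were 50.2 ± 1.05 and 3.73 ± 0.131 FPKM (SD, n = 3 each), a 13.5-fold lower level that left 7.43% of the control value, with a log2 fold change of -3.44 (SE 0.0434). These levels rest on 5725 to 5987 fragments per control library and 402 to 440 per MMK-1 library. The other peptide carrier of the plasma membrane, Slc15a2 (PEPT2), did not pass the filter and was at 0.809, 0.820 and 0.729 FPKM in the control and 1.31, 0.955 and 1.04 FPKM in the MMK-1 libraries, its values being given after they were seen.

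Slc7a9 and Slc3a1 encode the light and heavy chain of the carrier of cystine and cationic amino acids, whose loss is the cause of cystinuria. Slc7a9 (NCBI gene 30962, chr7:35448796-35466036, plus strand) was at 103, 107 and 106 FPKM in the control and 32.5, 32.3 and 35.9 FPKM in the MMK-1 libraries. The mean was reduced from 105 ± 1.74 to 33.6 ± 2.02 FPKM, to 31.9% of the control, with a log2 fold change of -1.62 (SE 0.0487, adjusted p = 2.5e-08 in limma). Slc3a1 (NCBI gene 20532, chr17:85028376-85064236, plus strand) was at 101, 99.7 and 104 FPKM in the control and 67.0, 65.8 and 73.1 FPKM in the MMK-1 libraries. Its mean fell from 102 ± 2.44 to 68.7 ± 3.90 FPKM, with a log2 fold change of -0.56 (SE 0.0485, adjusted p = 1.0e-05 in limma). Both chains were therefore lower in every MMK-1 library, and the heavy chain kept 67.4% of its control level.

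Slc6a19 and Slc6a20a encode sodium-coupled carriers of the brush border. Slc6a20a (SIT1, a proline and imino acid carrier; NCBI gene 102680, chr9:123634770-123678885, minus strand) was at 61.0, 61.0 and 64.2 FPKM in the control and 17.4, 18.7 and 20.2 FPKM in the MMK-1 libraries. The mean of 62.0 ± 1.83 FPKM was reduced 3.31-fold to 18.8 ± 1.44 FPKM, with a log2 fold change of -1.68 (SE 0.0573, adjusted p = 5.1e-08 in limma). Its close paralog Slc6a20b had 5, 13 and 8 fragments in the control and 0, 4 and 1 in the MMK-1 libraries, and how reads shared by both were counted is not given in the sources used here.

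The smallest change of the 10 genes was that of Slc6a19 (NCBI gene 74338, chr13:73679745-73704865, minus strand), which encodes B0AT1, the main carrier of neutral amino acids. It was at 34.9, 35.1 and 38.0 FPKM in the control and 31.8, 31.1 and 27.2 FPKM in the MMK-1 libraries, so the nearest libraries of the groups were close and MMK-1 replicate 3 was the lowest. The mean was 36.0 ± 1.71 FPKM in the control and 30.1 ± 2.47 FPKM in the MMK-1 group, with a log2 fold change of -0.25 (SE 0.0644, 95% interval -0.40 to -0.11, adjusted p = 0.0064 in limma). Leaving out each library in turn gave -0.30 to -0.19.

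Slc1a1 (NCBI gene 20510, chr19:28835049-28913960, plus strand) encodes EAAT3, which takes up glutamate, aspartate and cysteine. Its level was 12.0, 11.5 and 12.5 FPKM in the control and 7.60, 7.48 and 7.21 FPKM in the MMK-1 libraries. With means of 12.0 ± 0.483 and 7.43 ± 0.201 FPKM, it was reduced to 61.9% of the control, with a log2 fold change of -0.63 (SE 0.0477, adjusted p = 5.0e-06 in limma).

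On the basolateral side, the light chains Slc7a7 and Slc7a8 were reduced. Slc7a8 (LAT2, an exchanger of neutral amino acids; NCBI gene 50934, chr14:54722209-54781946, minus strand) was at 31.7, 30.5 and 30.5 FPKM in the control and 7.71, 8.31 and 8.96 FPKM in the MMK-1 libraries. Its mean fell 3.71-fold from 30.9 ± 0.674 to 8.33 ± 0.625 FPKM, with a log2 fold change of -1.77 (SE 0.0554, adjusted p = 3.0e-08 in limma). After Slc15a1, this was the largest change among the 10 genes. Slc7a7 (y+LAT1, which exports cationic amino acids in exchange for neutral ones and is mutated in lysinuric protein intolerance; NCBI gene 20540, chr14:54369442-54417780, minus strand) was at 48.9, 46.7 and 47.4 FPKM in the control and 24.6, 26.0 and 26.4 FPKM in the MMK-1 libraries. The mean was reduced from 47.7 ± 1.17 to 25.7 ± 0.933 FPKM, with a log2 fold change of -0.87 (SE 0.0434, adjusted p = 4.1e-07 in limma).

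Slc7a5 was the exception. It encodes LAT1, a carrier of large neutral amino acids such as leucine (NCBI gene 20539, chr8:121881150-121907694, minus strand), and its level was 9.81, 9.93 and 10.3 FPKM in the control and 19.8, 20.1 and 21.4 FPKM in the MMK-1 libraries. Each MMK-1 library was well above each control library, and the mean rose 2.04-fold to 20.4 ± 0.846 FPKM, where the SD of the control libraries was 0.244 FPKM, with a log2 fold change of 0.96 (SE 0.0464, adjusted p = 3.3e-07 in limma). The heavy chain shared by LAT1, LAT2 and y+LAT1, Slc3a2 (4F2hc or CD98; NCBI gene 17254, chr19:8706882-8723369, minus strand), was at 26.7, 26.1 and 26.5 FPKM in the control and 18.1, 17.7 and 20.2 FPKM in the MMK-1 libraries. It fell from 26.4 ± 0.307 to 18.6 ± 1.33 FPKM, with a log2 fold change of -0.49 (SE 0.0536, adjusted p = 4.9e-05 in limma), and MMK-1 replicate 3 was the closest to the controls.

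**Figure D2:**
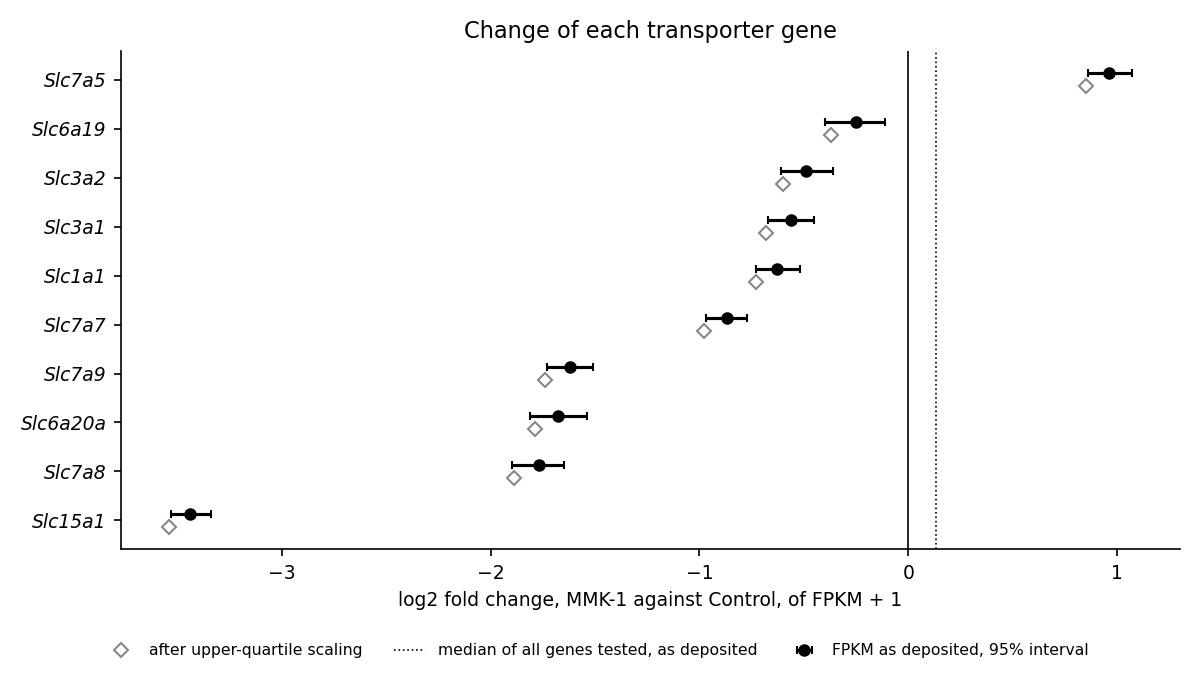
Log2 fold change of FPKM + 1 in MMK-1 against Control libraries for the 10 transporter genes (n = 3 each). Black points and bars are the limma estimates from deposited values with 95% intervals, open diamonds the estimates after upper-quartile scaling, and the dotted line the median of all genes tested (0.13); the black points run from -3.44 for Slc15a1 to 0.96 for Slc7a5, and the diamonds lie 0.11 to 0.12 further left.

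The genes differed in how far they changed, so the balance between subunits was compared within each library, over 5 pairs. The ratio of Slc7a9 to Slc3a1 was 1.02, 1.07 and 1.02 in the control and 0.485, 0.491 and 0.491 in the MMK-1 libraries, so the light chain went from about the level of its heavy chain to well under it. On the log2 scale this ratio changed from 0.05 ± 0.0411 to -1.03 ± 0.0112 (SD, n = 3 each), a difference of -1.08.

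Among the light chains that share Slc3a2, the ratio of Slc7a8 to Slc3a2 was 1.18, 1.17 and 1.15 in the control and 0.427, 0.470 and 0.445 in the MMK-1 libraries. That of Slc7a7 to Slc3a2 was 1.83, 1.79 and 1.79 in the control and 1.36, 1.47 and 1.31 in the MMK-1 libraries. Slc7a5 moved the other way, with a ratio to Slc3a2 of 0.367, 0.380 and 0.388 in the control and 1.10, 1.14 and 1.06 in the MMK-1 libraries. In that order, the log2 ratios differed by -1.39, -0.39 and 1.54. Between the light chains LAT1 and LAT2, the ratio of Slc7a5 to Slc7a8 was 0.310, 0.326 and 0.337 in the control and 2.57, 2.42 and 2.39 in the MMK-1 libraries, a 7.58-fold change of the ratio. The groups did not overlap in any of the 5 pairs. Each exact two-sided permutation test gave p = 0.100 (adjusted p = 0.100 over 5 pairs), which is the smallest p that 3 against 3 libraries allow, so none can pass 0.05.

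**Figure D3:**
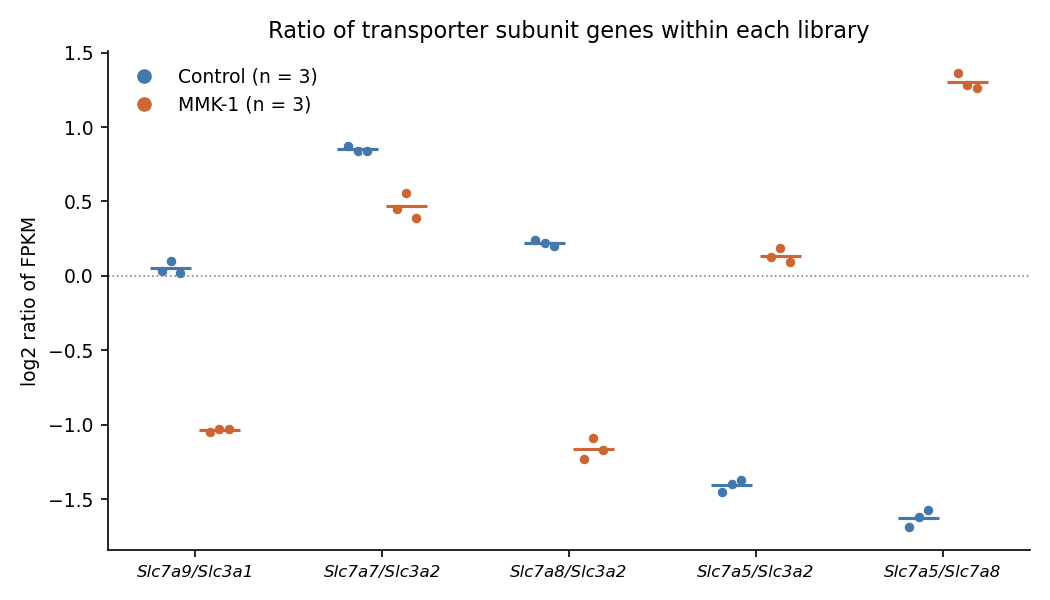
Log2 ratio of the FPKM of paired transporter genes in each library, with Control in blue and MMK-1 in orange (n = 3 each), bars at group means and a dotted line where both genes have the same FPKM. The ratio of Slc7a5 to Slc7a8 crosses the dotted line upwards, from a mean of -1.63 to 1.30, and that of Slc7a9 to Slc3a1 goes from 0.05 to -1.03.

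The order of the genes by level also differed between the groups. In the control libraries, Slc7a9 and Slc3a1 were highest with overlapping ranges, followed by Slc6a20a, Slc15a1, Slc7a7, Slc6a19, Slc7a8, Slc3a2, Slc1a1 and Slc7a5, whose ranges did not overlap between neighbours. With MMK-1, Slc3a1 was highest, followed by Slc7a9, Slc6a19 and Slc7a7, and then by Slc7a5, Slc6a20a and Slc3a2, where each overlapped the next. Slc7a8, Slc1a1 and Slc15a1 were the lowest, with ranges apart. Slc15a1 thus went from rank 4 to rank 10 and Slc7a5 from rank 10 to rank 5. Levels per length depend on the length used by the authors: the length implied for Slc3a2 was 9333 bases, 3.32 times its longest coding transcript in GENCODE, while this quotient was 1.90 for Slc7a8, 1.49 for Slc7a7, 0.486 for Slc6a20a and 0.984 to 1.18 for the other 6 genes. Places in the order and ratios between genes carry this factor, whereas fold changes of group means in FPKM and differences of log2 ratios do not. The fold changes of FPKM + 1 carry it slightly, through the pseudocount.

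The coefficient of variation of the 10 genes was 1.16% to 4.76% in the control group and 2.70% to 8.23% in the MMK-1 group, and it was higher in the latter for each gene except Slc1a1 (4.02% and 2.70%). MMK-1 replicate 3 was the highest MMK-1 library in 7 of the 10 genes and the lowest in Slc6a19 and Slc1a1. Without it, the log2 fold change was -3.45 for Slc15a1, the other 9 genes kept their calls, and the median over the 10 was again -0.75.

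The wider set of amino acid and peptide carriers held genes that rose and genes that fell. Of 45 other carriers searched by name, 38 were listed and 21 passed the filter, of which 10 rose, 8 fell and 3 (Slc6a6, Slc38a10 and Slc66a1) did not pass an adjusted p of 0.05 in limma. Over all genes tested, 48.5% rose and 24.7% fell, so the share that rose was near that of all genes. After upper-quartile scaling, the counts were 10 and 10, where 38.3% of all genes rose and 34.0% fell. Their median log2 fold change was 0.07, and -0.02 after that scaling, beside 0.13 and 0.03 for all genes tested. By the log2 fold change of FPKM + 1, the largest rises were those of Slc6a9 (the glycine carrier GlyT1), Slc38a2 and Slc38a1. The last are the sodium-coupled carriers SNAT2 and SNAT1 of glutamine and other small neutral amino acids. By the ratio of group means, the low genes Slc7a6 (3.08-fold) and Slc7a11 (2.86-fold) rose more than Slc38a2 (2.73-fold) and Slc38a1 (2.45-fold). Slc6a9 was at 3.64, 3.80 and 3.65 FPKM in the control and 12.8, 12.9 and 13.8 FPKM in the MMK-1 libraries, with a log2 fold change of 1.59 (SE 0.0482, adjusted p = 2.6e-08 in limma). Slc38a2 was at 30.3, 30.3 and 29.9 FPKM in the control and 87.7, 86.9 and 72.1 FPKM in the MMK-1 libraries, so that replicate 3 rose less than the others, and the log2 fold change was 1.41 (SE 0.0718, adjusted p = 4.5e-07 in limma). For Slc38a1, the mean rose from 15.4 ± 0.377 to 37.7 ± 1.91 FPKM, with a log2 fold change of 1.24.

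The largest falls in this set were those of Slc7a15, a light-chain homologue, Slc36a1 and Slc16a10. Slc36a1 (the proton-coupled carrier PAT1 of small amino acids) was at 23.6, 24.4 and 23.1 FPKM in the control and 5.47, 5.26 and 5.41 FPKM in the MMK-1 libraries, with a log2 fold change of -1.95 (SE 0.0432, adjusted p = 5.1e-09 in limma). Slc16a10 (TAT1, a basolateral carrier of aromatic amino acids) was at 34.2, 35.1 and 34.1 FPKM in the control and 12.0, 11.6 and 11.9 FPKM in the MMK-1 libraries, with a log2 fold change of -1.47 (SE 0.0400, adjusted p = 1.5e-08 in limma). Slc7a15 fell from 10.4 ± 0.175 to 1.87 ± 0.379 FPKM, a 5.57-fold lower level (adjusted p = 1.7e-07 in limma).

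Further carriers of this set were singled out after their values had been seen, because they have the same partner or substrates as the 10 genes. The basolateral carrier LAT4 (Slc43a2) fell from 14.2 ± 0.286 to 6.50 ± 0.423 FPKM, and the glutamine carrier ASCT2 (Slc1a5) rose from 54.0 ± 0.983 to 88.4 ± 3.88 FPKM, with log2 fold changes of -1.02 and 0.70 (adjusted p = 5.0e-07 and 1.5e-06 in limma). Of the remaining light chains of Slc3a2, Slc7a11 (xCT, the cystine and glutamate exchanger) rose as Slc7a5 did. Its level went from 1.15 ± 0.0514 to 3.30 ± 0.362 FPKM (adjusted p = 3.8e-06 in limma). Slc7a6 (y+LAT2) was at 0.574 ± 0.0102 FPKM in the control and 1.77 ± 0.0403 FPKM in the MMK-1 libraries. It passed the filter only through the MMK-1 group. A gene with such a control level can pass only by being higher with MMK-1, so its p is not given. It is among the carriers counted above as rising. Slc6a14 (ATB0,+, a carrier of neutral and cationic amino acids) did not pass the filter and had 147, 140 and 120 fragments in the control and 5, 15 and 5 in the MMK-1 libraries.

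Proteins that accompany the carriers or supply their ion gradients were examined next. Of 7 tested genes of this kind, 6 fell and none rose by the same criterion, by which 24.7% of all genes tested fell and 48.5% rose. Their median log2 fold change was -0.20, and -0.32 after upper-quartile scaling. The scaffold proteins Nherf1 and Pdzk1 of the brush border had log2 fold changes of -0.99 and -0.76. Smaller values were found for Slc9a3, the sodium-proton exchanger NHE3 (-0.16, adjusted p = 0.022), and for Atp1b1, a subunit of the sodium pump (-0.20, adjusted p = 0.0026), in limma as above. Leaving out 1 library, other than MMK-1 replicate 3, ended the call of Slc9a3 in each of 5 cases (adjusted p up to 0.076). Arl6ip5, which binds EAAT3, was at 44.5 ± 2.03 FPKM in the control and 47.9 ± 2.83 FPKM with MMK-1 (log2 fold change 0.10, adjusted p = 0.12), a direction that turned to -0.01 after upper-quartile scaling.

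Genes that rise when amino acids are short, many of them under ATF4, were counted because Slc7a5, Slc7a11 and Slc38a2 are known to belong to that response. These carriers rose and were picked with their values known. Slc3a2, the heavy chain of Slc7a5 and Slc7a11, fell (log2 fold change -0.49, adjusted p = 4.9e-05 in limma). Of 10 genes listed for this response, 9 rose and none fell by the same criterion, where 48.5% of all genes tested rose. Their median log2 fold change was 0.67. After upper-quartile scaling, 7 rose, where 38.3% of all genes did, 1 (Atf4, -0.11) fell, Ddit3 and Asns did not pass, and the median was 0.55. Atf4 itself was at 209 ± 2.16 FPKM in the control and 210 ± 9.09 FPKM in the MMK-1 group (log2 fold change 0.01, adjusted p = 0.91). Nupr1 had the largest rise (1.26), followed by Atf3 (1.01), Phgdh (0.92), Chac1 (0.71), Trib3 (0.68), Sesn2 (0.65) and Psat1 (0.41), as log2 fold changes, each with an adjusted p no higher than 3.2e-05 in limma. The values of Asns, an asparagine synthetase gene, and Ddit3 were small, at 0.16 and 0.15 (adjusted p = 0.0074 and 0.023), and the call of Ddit3 was lost without Control replicate 1 or 3 (adjusted p up to 0.089).

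The deposited KEGG annotation of protein digestion and absorption, without the 10 genes and without collagens and elastin, held 33 genes, of which 21 passed the filter. Of these, 12 fell, 8 rose and 1 (Kcnk5) did not pass an adjusted p of 0.05 in limma, where 24.7% of all genes tested fell and 48.5% rose. The median log2 fold change was -0.16, and -0.28 after upper-quartile scaling and 0.01 over the 33 genes when every gene above 0 was tested. This set and the carriers and partners above have genes in common. The largest falls were that of Mep1b and those of Slc7a15 and Slc36a1 given above. Mep1b, which encodes the beta subunit of the brush-border protease meprin, was reduced from 120.5 ± 2.19 to 15.3 ± 0.753 FPKM (log2 fold change -2.90, adjusted p = 1.2e-09). Other surface peptidases that release the substrates of PEPT1 and the amino acid carriers were named after their values had been seen. As log2 fold changes, Mep1a (-1.87), Dpp4 (-1.67), Mme (-1.65) and Xpnpep2 (-1.36) fell. Beside them, the 10 transporters had a median of -0.75 and ran from -3.44 to 0.96. By the log2 fold change of FPKM + 1, Ctrb1, a chymotrypsinogen gene (8.80 ± 0.310 to 38.4 ± 2.51 FPKM), rose the most. Kcnn4, a potassium channel gene (1.10 ± 0.136 to 7.25 ± 0.438 FPKM), and Slc38a2 came next. By the ratio of group means, Kcne3 (2.97-fold) rose more than Slc38a2 (2.73-fold), and Kcnn4 (6.59-fold) more than Ctrb1 (4.36-fold). Of the 39 collagens and elastin in the annotation, 1 passed the filter and was lower.

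**Figure D4:**
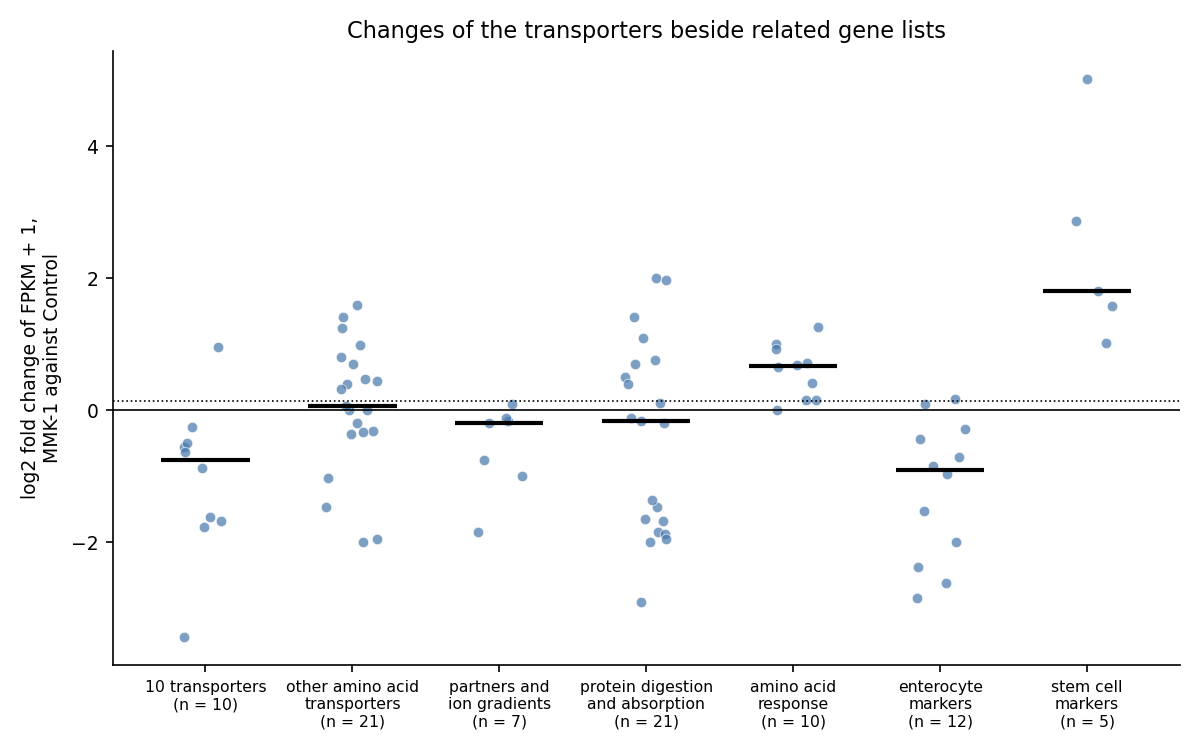
Log2 fold change of FPKM + 1 in MMK-1 against Control libraries, where each point is 1 tested gene of the list on the horizontal axis, with n genes, black bars mark list medians and the dotted line the median of all genes tested (0.13). The 10 transporters have a median of -0.75, other amino acid transporters of 0.07, enterocyte markers of -0.90 and stem cell markers of 1.80, and some genes are in more than 1 list.

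Markers of several cell types also differed between the groups, where 48.5% of all genes tested rose and 24.7% fell. Of 12 enterocyte markers tested, 10 fell, 1 rose (Fabp1, log2 fold change 0.17, and 0.05 without a call after upper-quartile scaling, the call also being lost when every gene above 0 was tested) and 1 did not pass, with a median of -0.90, and their summed level was 14137 to 14321 FPKM in the control and 10141 to 10917 FPKM in the MMK-1 libraries. Among them, Anpep, a brush-border aminopeptidase, fell from 623 ± 9.64 to 85.9 ± 4.40 FPKM, and Slc5a1, the sodium-glucose carrier, from 467 ± 3.48 to 344 ± 12.5 FPKM. The structural brush-border gene Vil1 fell from 566 ± 5.48 to 245 ± 10.9 FPKM. All 5 stem cell markers rose, with a summed level of 44.3 to 44.8 FPKM in the control and 306 to 319.7 FPKM in the MMK-1 libraries, and all 3 Paneth cell markers rose, with sums of 328 to 370.4 and 945 to 1041 FPKM. Of 3 goblet cell markers, Tff3 and Fcgbp rose and Muc2 fell, with sums of 908 to 969 FPKM in the control and 1147 to 1249 FPKM in the MMK-1 libraries. Of 3 enteroendocrine markers, Chgb (log2 fold change 0.28) and Neurod1 (0.86) rose and Chga did not pass (0.05, and -0.07 after upper-quartile scaling), with sums of 141 to 155 and 168 to 184 FPKM. The part of these shifts in the change of the transporters was not tested.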

How the data were processed

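RNA was extracted with Trizol, and libraries were made with the VAHTS Universal V10 kit and sequenced as paired-end reads. The submitters' processing notes name HISAT2, HTSeq, R 3.2.0, DESeq2 and the build mm10 without their roles. The authors deposited FPKM values per gene, scaled by gene length and library total. Whole fragments were recovered from the FPKM steps for 99.99% of the genes tested, within 0.02 of a whole number, and gave totals of 35512739 to 37537463 fragments per library. The design allowed for either unit and, as the values were FPKM, limma 3.58.1 in R 4.3.3 (lmFit, eBayes with trend) was run on log2(FPKM + 1), with a pseudocount of 1, on the 10551 genes whose mean FPKM was 1 or more. This scale understates the fold changes of low genes. Calls needed an adjusted p no higher than 0.05 or, as in the study's methods, a fold change of 2 or more with an unadjusted p no higher than 0.05. Voom on the recovered fragments was added after seeing the data. The members and lists were chosen with earlier results of these data known. Named genes were all 10 members, the 3 largest rises and falls of each list with groups that did not overlap, every tested gene of the partner and amino acid response lists (some listed genes are counted but not reported here singly), and the 3 genes nearest to Slc15a1. Python 3.11.15 with scipy 1.17.1 gave the permutation tests. Coordinates are from GENCODE on GRCm38. The deposited comparison columns (fold changes and p-values) were not used, and FPR family genes were not analysed here.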

Additional observations from a re-analysis of the deposited data

How the results depend on the processing

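Under 12 alternatives (upper-quartile scaling, a pseudocount of 0.1, every gene above 0, a mean FPKM of at least 5, a replicate block, voom on recovered fragments and leaving out each library), the 9 tested transporter genes kept their direction and their side of an adjusted p of 0.05 in 108 of 108 cases. The log2 fold change of Slc15a1 was -3.54 after upper-quartile scaling, -3.71 with the smaller pseudocount and -3.75 with voom, and -3.45 to -3.41 when each library was left out. The number of other amino acid transporters called higher was 6 instead of 10 at a mean FPKM of at least 5, where fewer genes are tested. Leaving out each library, 10 of these were called higher and 8 lower throughout, and 10 to 12 protein digestion and absorption genes were called lower. The log2 ratio differences then ranged from -1.10 to -1.06 (Slc7a9 to Slc3a1), -0.43 to -0.35 (Slc7a7 to Slc3a2), -1.42 to -1.35 (Slc7a8 to Slc3a2), 1.51 to 1.56 (Slc7a5 to Slc3a2) and 2.89 to 2.95 (Slc7a5 to Slc7a8). Over all genes, voom gave 726 higher and 500 lower past a fold change of 2, instead of 358 and 385.

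The replicate numbers gave no sign of pairing, as deviations of same-numbered libraries correlated at 0.0253, -0.04 and 0.0279. With a replicate block, the transporters other than the untested Slc15a1 kept their calls, and Slc7a5 was again the only one higher. Of these, Slc6a20a, Slc7a8 and Slc7a9 stayed past a fold change of 2. With this block, 10 and 8 other carriers were called higher and lower, and 8 and 12 protein digestion and absorption genes, and the log2 ratio differences were -1.08, -0.39, -1.39, 1.54 and 2.92. Counts of fragments cover counting error only.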

Other observations

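The genes whose values over the 6 libraries were nearest to those of Slc15a1, by Euclidean distance of log2(FPKM + 1) from the control mean, were Sardh (distance 0.384), Mt4 (0.427) and Reg3a (0.723). Sardh, which encodes the mitochondrial sarcosine dehydrogenase, was at 10.7, 9.92 and 10.1 FPKM in the control and 0.221, 0.177 and 0.217 FPKM in the MMK-1 libraries. Mt4, a metallothionein gene, was at 81.6, 95.3 and 86.7 FPKM and at 8.79, 8.97 and 7.16 FPKM. Reg3a, a gene of secreted lectins with close paralogs, was at 171, 164 and 182 FPKM and at 17.5, 21.2 and 21.1 FPKM. The group means fell 49.9-fold for Sardh, 10.6-fold for Mt4 and 8.64-fold for Reg3a, beside 13.5-fold for Slc15a1, and the rank of Sardh depends on the pseudocount of 1, which is large beside its level with MMK-1. The likeness is a description of a fall shared by these libraries, and nothing is said of a shared function.

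Among carriers below the filter, Slc43a1 (LAT3) had 77, 64 and 68 fragments in the control and 14, 17 and 16 in the MMK-1 libraries.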
